A study of Mus musculus with 33 samples.

Results

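The regrown liver was compared with the starting liver in mice. The comparison used the 6 arrays of livers taken 7 and 14 days (d) after surgery, pooled, against the 3 arrays at 0 d, which are 9 of the 33 arrays of a time course with 11 times. The labels name a 70% partial hepatectomy for every time, 0 d included, and each time had 3 livers that the labels call biological replicates. The labels give no strain, sex or age, name no sham-operated or unoperated group, and do not say how the 0 d liver was taken, so lasting effects of tissue loss and of the operation itself cannot be told apart. RNA from each liver was read on an Affymetrix mouse array, and values are log2 signals, so that a difference of 1 is a 2-fold difference.

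Partial hepatectomy removes most of the liver lobes, and the remaining lobes enlarge until the organ regains its mass, which in mice is largely done within about a week. Hepatocytes first answer cytokines such as interleukin-6 by switching on acute phase genes, which encode secreted plasma proteins, and then divide. Non-parenchymal cells follow, among them Kupffer cells, the resident macrophages of the sinusoids, and stellate cells, which lay down matrix. No liver weight is among the values used here, so "regrown" names the time after surgery only.

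The labelled tissue was checked first. Albumin (Alb) lay between 14.67 and 14.73 on the 9 arrays, and the lowest correlation of an array with its own group was between 0.985 and 0.989. Xist lay between 4.80 and 5.29 and the Y-linked Eif2s3y between 8.73 and 9.18. The Y-linked Uty and Kdm5d lay between 6.86 and 7.06 and between 7.04 and 7.42, so all 9 arrays read as male. Some arrays stood apart. For 0 d replicate 3 and 14 d replicate 1 the clock output gene Dbp read 8.36 and 8.33, where the other 7 arrays read 10.23 to 11.65. The core clock gene Arntl read 8.12 and 7.5 on this pair of arrays and 5.28 to 6.39 elsewhere. Over the 26 tested clock and output genes, the median relative to the 0 d mean was -0.30 and -0.54 on this pair. It was also low on 7 d replicate 3, at -0.60, and 0.01 to 0.21 on the other arrays. The labels give no hour of collection. Adipocyte genes were high on 7 d replicate 3, with Adipoq at 7.07 and the brown fat genes Ucp1 at 8.06 and Cidea at 7.88. On the other arrays Ucp1 was at most 4.05 and Cidea at most 4.72, while Adipoq reached 5.38 on 0 d replicate 3 and 3.33 elsewhere. Smooth muscle actin (Acta2, 9.13) and the fibroblast gene Dpt (9.10) were also highest on 0 d replicate 3. The counts of called genes, the differences of the called genes and the counts of called list members were therefore also computed without both 14 d replicate 1 and 0 d replicate 3, and without each array alone. List medians and counts of arrays without overlap were not. The fit without both arrays kept 7 d replicate 3, whose clock list median was the lowest of the 9 arrays.

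**Figure D1:**
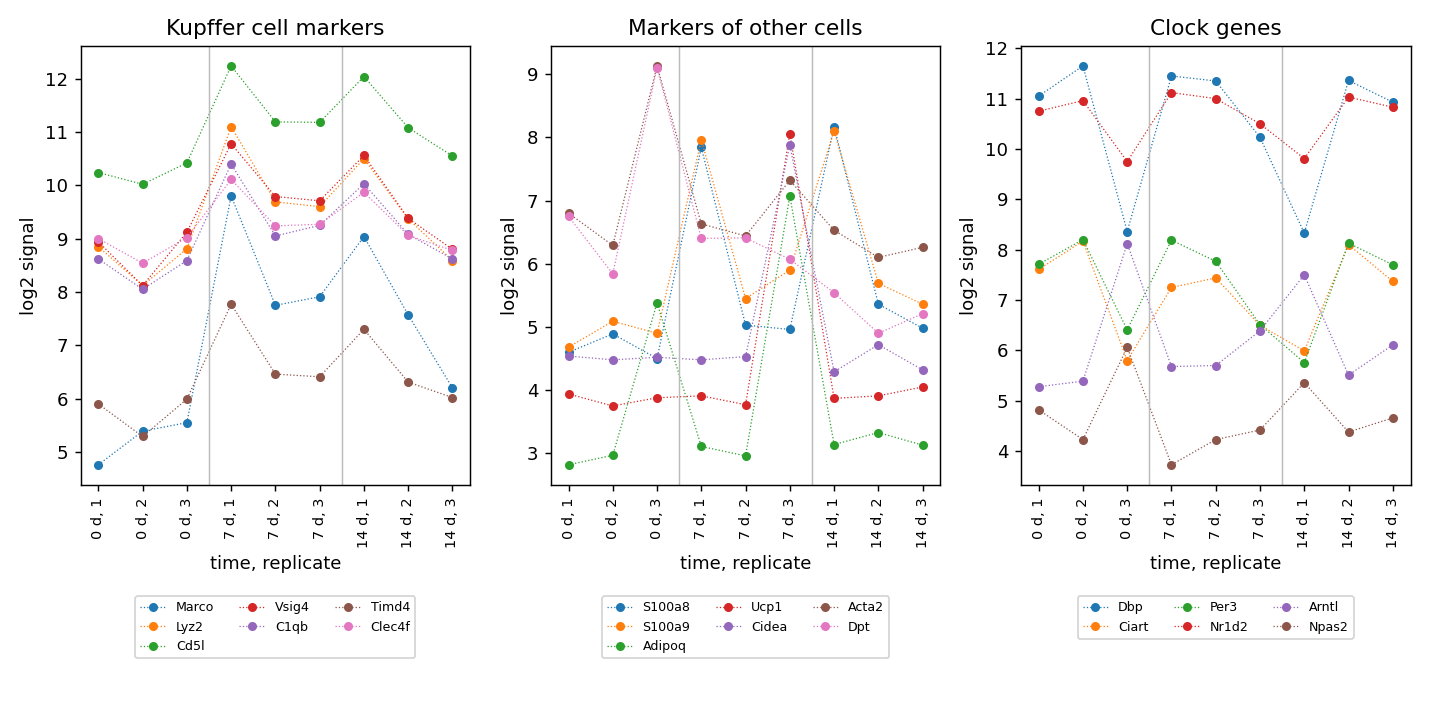
Log2 signal of markers on each of the 9 arrays, ordered by time and replicate, for Kupffer cells (left), other cells (middle) and the clock (right). Dotted lines join the values of a gene, and grey lines part the times. Kupffer markers were highest on 7 d replicate 1 and 14 d replicate 1, and adipocyte genes on 7 d replicate 3. Dbp and Arntl were displaced on 0 d replicate 3 and 14 d replicate 1.

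Few genes were called in the regrown liver against 0 d. Of 13642 genes tested, 34 (0.249%) passed an adjusted p of 0.05 in the pooled comparison with limma, 18 higher (0.132%) and 16 lower (0.117%). Only 4 of the higher genes and 0 of the lower genes differed at least 2-fold: the siderophore-binding protein Lcn2, the macrophage receptor Marco, the serum amyloid Saa1 and the secreted liver protein Fgl1. The higher genes also included the plasma protein Lrg1, the matrix genes Col4a2 and Sparc and the extracellular antioxidant enzyme Sod3, and the lower genes were shifted by 0.28 to 0.57 on the log2 scale. At an unadjusted p under 0.05 in limma there were 2209 genes, from 6 arrays against 3. Comparisons with 3 arrays a side gave 1761 (7 d against 0 d), 1870 (14 d against 0 d) and 572 (14 d against 7 d). With 3 arrays a time, a gene that was not called is not shown to be unchanged. The calls, errors and intervals drew on a spread shared over all 33 arrays, which for some genes differed from that of the 9 arrays compared. The standard error of the pooled difference went from 0.76 to 1.17 for Lcn2 when only the 9 arrays were fitted. For Saa1 it went from 0.44 to 0.68, for Fgl1 from 0.21 to 0.31 and for Lrg1 from 0.18 to 0.22. For Ackr1 and Pik3cd it went from 0.10 to 0.094 and from 0.090 to 0.084. With only the 9 arrays in the fit 0 genes were called by limma (2068 at an unadjusted p under 0.05, smallest adjusted p 0.129). With quantile normalization 11 genes were called, 9 higher and 2 lower. Without 0 d replicate 1 the count was 5, without 0 d replicate 2 it was 66 and without 7 d replicate 2 it was 50. Without 0 d replicate 3 it was 18, without 7 d replicates 1 or 3 it was 16 and 15, and without 14 d replicates 1 or 2 it was 13 and 10.

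All 34 genes had the same sign at 7 d and at 14 d. Taken alone, 7 d against 0 d gave 25 genes (0.183%), 17 higher (0.125%) and 8 lower (0.0586%), and 14 d against 0 d gave 2 (0.0147%). At an unadjusted p under 0.05 in limma the order was reversed, with 1761 genes at 7 d and 1870 at 14 d. The median absolute difference from 0 d was 0.113 at 7 d and 0.126 at 14 d, so fewer calls do not show 14 d to be closer to 0 d. Both comparisons use the same 0 d arrays. The 7 d count was 0 without 0 d replicate 1 or 7 d replicate 1 and 4 without 7 d replicate 3. It was 48 without 0 d replicate 2, 47 without 14 d replicate 1 and 38 without 7 d replicate 2. The 14 d count was 23 without 0 d replicate 2 and 0 to 2 without each other single array, and array weights gave 12 genes at each time. Of the 34 genes, 16 were also called at 7 d and 2 at 14 d. Without both 14 d replicate 1 and 0 d replicate 3 the pooled comparison called 6 genes, 5 of them among the 34: Sod3, Ackr1, Pik3cd, Fgl1 and Xrn1. The sixth was the adhesion receptor Adgrf1, named after its values were seen, at -0.80 in that fit and -0.45 (adjusted p = 0.22) on all arrays. Only Ackr1 and Pik3cd were called in the pooled comparison, at both times and without these arrays (0.0147% of genes).

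The 6 late arrays lay wholly above or below the 3 arrays of 0 d for 27 of the 34 called genes, 13 above and 14 below. The genes were called by the differences between these same arrays, so this is no separate test of them. Over all genes tested, 395 (2.9%) lay wholly above and 718 (5.26%) wholly below. The median difference over all genes was -0.03. For 13309 genes (97.6%) the 95% interval of the pooled difference stayed inside a 2-fold change in both directions.

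**Figure D2:**
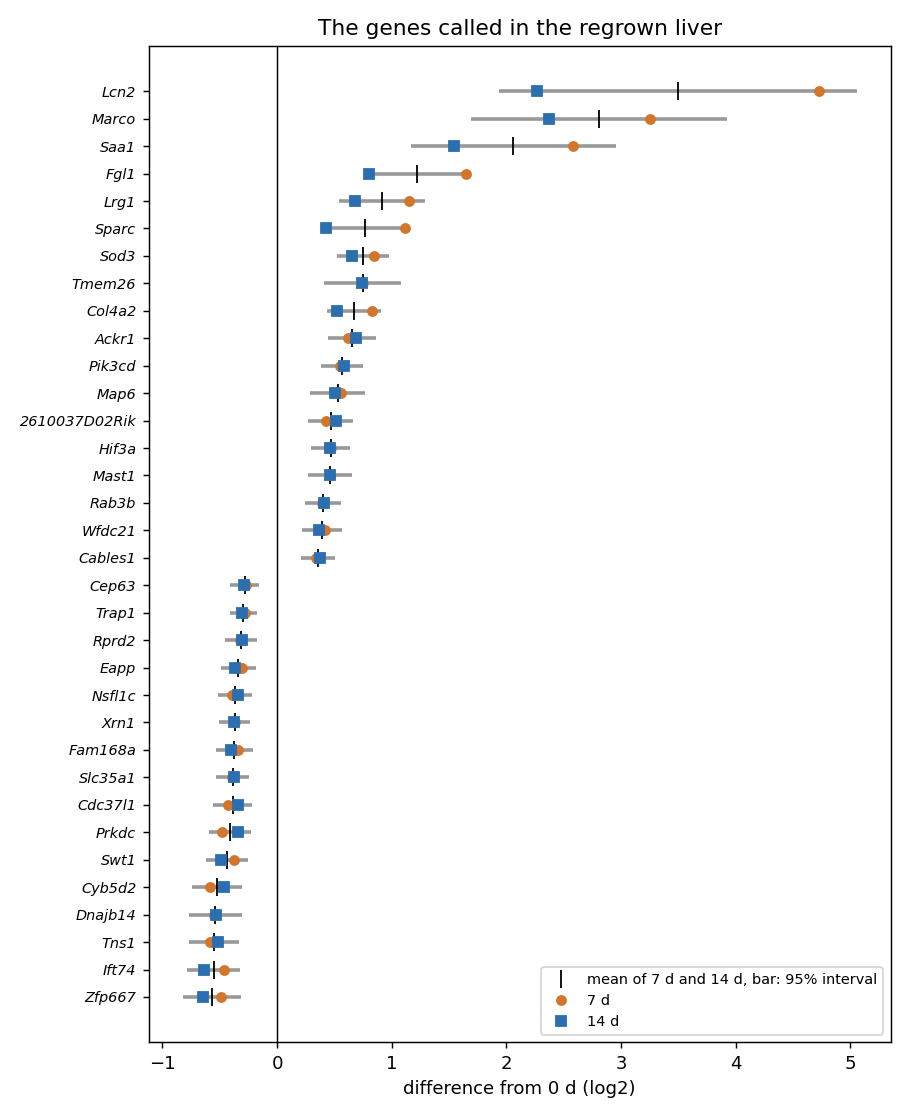
Difference from 0 d (log2) of the 34 called genes. The black tick and grey bar are the mean of 7 d and 14 d with its 95% interval, circles are 7 d and squares 14 d. Lcn2, Marco, Saa1 and Fgl1 lie beyond a difference of 1, and the 16 lower genes lie between -0.28 and -0.57.

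Ackr1 and Pik3cd met every condition with all arrays in the fit. The number of genes meeting every condition fell to 0 in 7 of 9 fits without 1 array, the exceptions being 7 d replicate 2 (2 genes) and 14 d replicate 3 (1 gene). It was also 0 with no filter, a filter at 7, array weights or only the 9 arrays. With probe sets averaged it was 2, but 1 of them was lower than at 0 d, so these were not the same pair. Ackr1, an atypical chemokine receptor of venular endothelium and red cells, read 5.32, 5.51 and 5.60 at 0 d, 6.29, 6.03 and 5.97 at 7 d, and 6.15, 6.20 and 6.16 at 14 d. All late arrays were above all 0 d arrays, and the groups at 7 d and 14 d overlapped. Its pooled difference was 0.65 ± 0.10 (SE, adjusted p = 0.0055), and without both arrays it was 0.72 (adjusted p = 0.031). The call was lost without 0 d replicate 1 (adjusted p = 0.088). Ackr1 signals lie near the floor of the arrays and rest on a single probe set. Its mean was 5.80 at 4 d, 6.10 at 7 d and 6.17 at 14 d, and the 14 d mean was the highest of the 11 times.

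Pik3cd, the catalytic subunit of a leukocyte phosphoinositide 3-kinase, read 11.41, 11.36 and 11.46 at 0 d, 12.03, 11.83 and 12.01 at 7 d, and 11.91, 12.16 and 11.92 at 14 d. The late arrays were again all above the 0 d arrays. The difference was 0.57 ± 0.09 (adjusted p = 0.0055), and the pooled call held without each array in turn, with a highest adjusted p of 0.046. It was lost with the mean of the probe sets of a gene (0.27, adjusted p = 0.055). The Pik3cd probe set used here had a mean of 11.85 over all arrays, whereas its other 5 probe sets reached at most 6, and which transcript the bright one reads was not tested. Its 4 d mean, 11.41, equalled the 0 d mean, while the means at the other later times lay between 11.70 and 12.08.

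Sod3, the secreted superoxide dismutase of the extracellular matrix, had the lowest adjusted p. It read 6.16, 6.38 and 6.38 at 0 d, 7.29, 7.05 and 7.12 at 7 d, and 7.19, 7.04 and 6.66 at 14 d. Every late array was above every 0 d array, and 14 d replicate 3 was the lowest of them. The difference was 0.75 ± 0.11 (adjusted p = 0.0052), and 0.73 (adjusted p = 0.031) without both arrays. The pooled call held without each array in turn (highest adjusted p 0.046), but 14 d alone gave 0.65 with an adjusted p of 0.078. Mean Sod3 was 6.31 at 0 d, 6.06 at 0.5 d and 5.99 at 0.75 d, reached 6.98 at 4 d and was highest at 7 d (7.16). Of 24 tested genes of the NRF2 and antioxidant list it alone was called (0.132% of all genes were called higher), and the list median was -0.06.

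**Figure D3:**
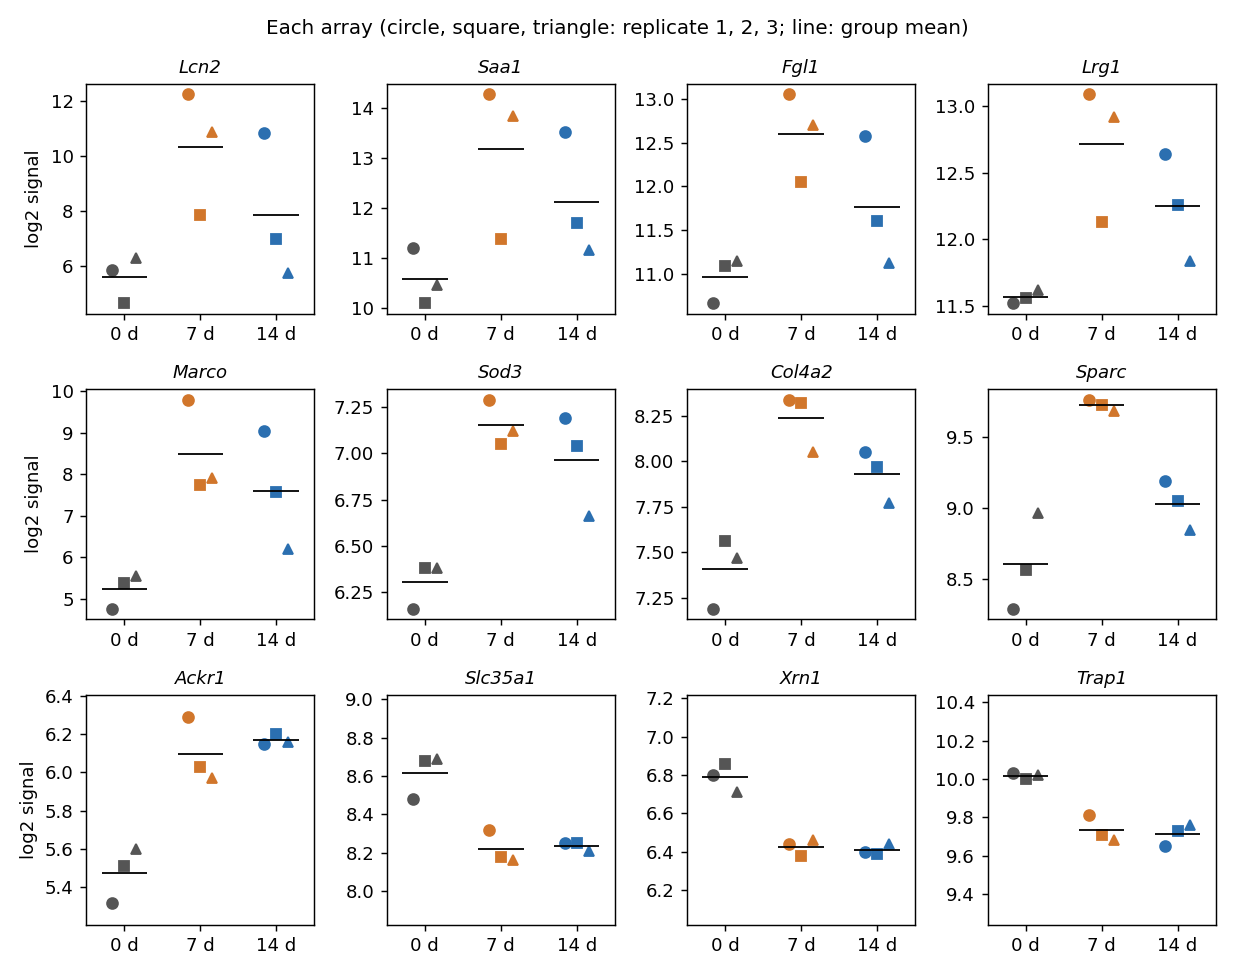
Log2 signal of 12 called genes on each array at 0 d, 7 d and 14 d. Circle, square and triangle are replicates 1, 2 and 3, lines are group means, and each panel has its own axis. Acute phase genes and Marco were spread widely at 7 d and 14 d, whereas Ackr1, Slc35a1, Xrn1 and Trap1 had late arrays that overlapped each other and lay apart from 0 d.

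Acute phase genes made up the largest group of called genes from any list. Of 31 tested genes of the list, 4 were called and higher (Lcn2, Saa1, Fgl1 and Lrg1) and 0 lower, beside 0.132% higher among all genes. The pooled median was 0.48, and 0.58 at 7 d and 0.20 at 14 d, against -0.03, -0.02 and -0.05 over all genes. Members with a pooled difference above 0 numbered 29 of 31 (93.5%, against 42.3% of all genes), and 27 of 31 were closer to the 0 d mean at 14 d than at 7 d (87.1%, against 46.8%). The comparisons at both times share the 0 d arrays. All late arrays lay above all 0 d arrays for 3 members (9.68%, against 2.9%). The list was chosen knowing these data, and only 1 of the 4, Fgl1, was called without both 14 d replicate 1 and 0 d replicate 3. The number of members called was 0 without 0 d replicate 1, 10 without 7 d replicate 2, 6 without 14 d replicate 3 and 1 without each of the other 6 arrays. It was 1 with array weights, and 2 with quantile normalization or a robust prior.

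The livers differed among themselves in these genes. The median of the acute phase list over its members, relative to the 0 d mean, was 1.04, 0.17 and 0.60 on the 7 d arrays and 0.50, 0.21 and -0.03 on the 14 d arrays. Replicates 1 and 3 of 7 d and replicate 1 of 14 d were the high ones, and 14 d replicate 3 was at the 0 d level.

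Lcn2, an antimicrobial protein that binds bacterial siderophores, showed the largest difference. It read 5.84, 4.64 and 6.27 at 0 d, 12.24, 7.84 and 10.86 at 7 d, and 10.84, 6.96 and 5.75 at 14 d. All 3 livers at 7 d were above 0 d, but 14 d replicate 3 lay within the 0 d range. The pooled difference was 3.50 ± 0.76 (adjusted p = 0.048), and the call was lost in 7 of 9 cases when an array was left out. It was 3.09 (adjusted p = 0.091) without both arrays. The 0 d signal is near the floor, so 3.50 may understate the change.

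Saa1, an apolipoprotein of the acute phase, read 11.20, 10.09 and 10.46 at 0 d, 14.28, 11.38 and 13.85 at 7 d, and 13.52, 11.69 and 11.16 at 14 d. Its pooled difference was 2.06 ± 0.44 (adjusted p = 0.042), with 14 d replicate 3 inside the 0 d range, and 1.65 (adjusted p = 0.14) without both arrays. A second probe set of Saa1 was also called. Saa1 and Saa2 are near-identical neighbours, and their probe sets may share signal. Saa2 read 8.73, 8.38 and 8.68 at 0 d, 13.74, 8.77 and 12.99 at 7 d, and 12.42, 8.80 and 8.72 at 14 d, with a difference of 2.31 that was not called (adjusted p = 0.12). The arrays high in Saa1 were those high in Saa2.

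Fgl1, a secreted hepatocyte protein that binds the inhibitory lymphocyte receptor LAG-3, read 10.66, 11.09 and 11.14 at 0 d, 13.06, 12.05 and 12.71 at 7 d, and 12.58, 11.60 and 11.12 at 14 d. Of the 6 late arrays, 5 were above 0 d and 14 d replicate 3 was within its range. The pooled difference was 1.22 ± 0.21 (adjusted p = 0.010), 1.65 at 7 d (adjusted p = 0.0038) and 0.80 at 14 d (adjusted p = 0.20). It was still called without both arrays (1.11, adjusted p = 0.031) and lost without 0 d replicate 1 (adjusted p = 0.12).

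Lrg1, a plasma glycoprotein with leucine-rich repeats, read 11.52, 11.56 and 11.62 at 0 d, 13.09, 12.13 and 12.92 at 7 d, and 12.64, 12.26 and 11.84 at 14 d. Here all late arrays were above all 0 d arrays. The difference was 0.92 ± 0.18 (adjusted p = 0.032), and 0.84 (adjusted p = 0.12) without both arrays. At 7 d alone Itih4, a plasma protein of the inter-alpha-trypsin inhibitor family, was called as well (0.53, adjusted p = 0.026, pooled 0.35 with an adjusted p of 0.077). Orm2, an acid glycoprotein, was above 0 d on all 6 late arrays (8.46, 7.21 and 8.09 at 0 d, 13.18, 9.31, 10.82, 12.05, 9.27 and 8.52 later) but was not called (2.61, adjusted p = 0.077). The metallothionein Mt2 overlapped 0 d, with a difference of 1.26 and a 95% interval of -0.20 to 2.72.

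For Lcn2, Saa1 and Fgl1 the late means lay below those from 0.25 d to 4 d. Mean Lcn2 was 5.58 at 0 d, 13.47 at its highest at 0.5 d, 10.73 at 4 d, 10.31 at 7 d and 7.85 at 14 d. Mean Saa1 was 10.58 at 0 d, with a highest mean of 14.51 at 0.75 d, and then 13.59 at 4 d, 13.17 at 7 d and 12.12 at 14 d. Fgl1 was highest at 0.75 d and 1 d (both 13.44), 12.61 at 7 d and 11.77 at 14 d. Mean Lrg1 was 12.68 at 4 d, 12.71 at 7 d and 12.25 at 14 d, after a highest mean of 13.86 at 0.5 d.

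**Figure D4:**
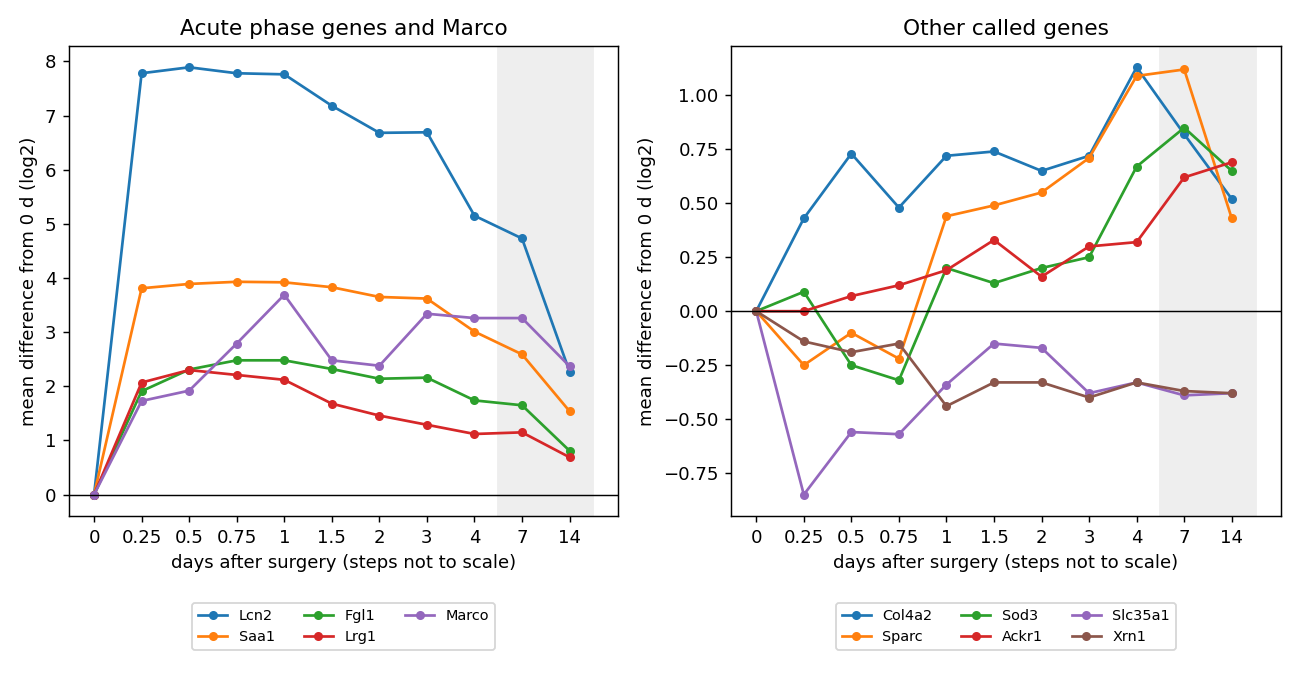
Mean difference from 0 d (log2, 3 arrays per time) over the time course for acute phase genes with Marco (left) and for other called genes (right). The 7 d and 14 d times are shaded, and the day axis is not to scale. The acute phase genes drawn had their highest means within 1 d, while Ackr1 was highest at 14 d and Sod3 at 7 d.

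Promoters of the called acute phase genes are shown because these genes were higher on the same arrays. RefSeq promoters (build GRCm38.p6, 250 bases before the start of the gene) were found for 3 of them, Lcn2 at chr2:32387740-32387989, Saa1 at chr7:46742981-46743230 and Lrg1 at chr17:56121947-56122196, all on the minus strand, and not for Fgl1. Capitals mark matches to 4 motifs searched on both strands. These were C/EBP (TTGCNNAA), the interleukin-6 response element (CTGGGAA), STAT (TTCNNNGAA) and an NF-kB motif.
Lcn2: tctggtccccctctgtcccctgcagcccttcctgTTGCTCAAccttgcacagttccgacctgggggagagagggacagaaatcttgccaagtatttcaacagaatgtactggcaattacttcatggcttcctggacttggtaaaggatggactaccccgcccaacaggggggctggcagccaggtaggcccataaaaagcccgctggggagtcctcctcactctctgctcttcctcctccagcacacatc
Saa1: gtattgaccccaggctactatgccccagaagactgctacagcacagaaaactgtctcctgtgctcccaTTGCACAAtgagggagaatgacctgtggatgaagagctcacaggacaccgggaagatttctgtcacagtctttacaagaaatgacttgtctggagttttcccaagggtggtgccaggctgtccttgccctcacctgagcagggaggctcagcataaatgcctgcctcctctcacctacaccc
Lrg1: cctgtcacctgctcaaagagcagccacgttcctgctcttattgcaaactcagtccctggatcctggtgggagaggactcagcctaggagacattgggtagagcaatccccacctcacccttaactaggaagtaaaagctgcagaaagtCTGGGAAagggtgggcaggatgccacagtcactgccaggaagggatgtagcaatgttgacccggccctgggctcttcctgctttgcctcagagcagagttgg
Lcn2 holds a C/EBP match, TTGCTCAA, that begins at position -216, and Saa1 another, TTGCACAA, at -182. Lrg1 holds an interleukin-6 response match, CTGGGAA, at -102, counted back from the start. Neither these STAT letters nor these NF-kB letters were found in the 3 windows. Other forms of the motifs were not searched, so sites of these factors may be present. Among 32851 promoters of the same length, 9.56% held the C/EBP letters, 9.1% the interleukin-6 response letters, 7.02% the STAT letters and 1.41% the NF-kB letters. A match describes the letters only.

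Of 19 Kupffer cell markers 1 was called and higher, the scavenger receptor Marco (0.132% of all genes were called higher). All 19 had a pooled difference above 0 (against 42.3% of all genes), and 6 (31.6%) lay above 0 d on all late arrays, against 2.9% of all genes. At an unadjusted p under 0.05 there were 17 of 19, against 2209 of all 13642 genes tested. The count of 1 became 5 without 14 d replicate 3 and 2 without 7 d replicate 2. It was 0 without 0 d replicates 1 or 3, 7 d replicate 1, 14 d replicates 1 or 2, or with probe sets averaged. The median was 0.84, 0.99 at 7 d and 0.65 at 14 d. In bulk tissue, more cells of a type and more RNA per cell cannot be told apart.

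Marco read 4.76, 5.39 and 5.55 at 0 d, 9.80, 7.75 and 7.91 at 7 d, and 9.04, 7.57 and 6.20 at 14 d. All late arrays were above all 0 d arrays, with replicate 1 the highest at each late time. The difference was 2.81 ± 0.54 (adjusted p = 0.025), and 2.61 (adjusted p = 0.11) without both arrays. A second Marco probe set had the same sign and an adjusted p of 0.085. The 0 d signal of Marco was near the floor.

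Other defining markers were not called. Vsig4, a complement receptor of Kupffer cells, read 8.94, 8.12 and 9.12 at 0 d, 10.78, 9.79 and 9.71 at 7 d, and 10.56, 9.38 and 8.80 at 14 d (difference 1.11, 95% interval 0.55 to 1.67, adjusted p = 0.074). Clec4f, a lectin found on Kupffer cells in the mouse, differed by 0.54 (0.13 to 0.94, adjusted p = 0.18). Timd4, which marks resident Kupffer cells, was above 0 d on all late arrays (0.98, adjusted p = 0.097). So were Cd5l, a secreted macrophage protein (1.15), and, barely, the complement subunit C1qb (0.99), whose highest 0 d and lowest late values both rounded to 8.62. The growth factor receptor Csf1r differed by 0.85 (adjusted p = 0.074), with 14 d replicate 3 inside the 0 d range.

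The summed signal of the Kupffer markers was 12.81 to 13.14 at 0 d, 13.64 to 14.60 at 7 d and 13.05 to 14.32 at 14 d. By array, the list median relative to 0 d was 1.75, 0.57 and 0.68 at 7 d and 1.45, 0.46 and 0.12 at 14 d. Replicate 1 was the high one at both times, and 14 d replicate 3 was inside the 0 d spread of -0.31 to 0.19.

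Neutrophil and monocyte markers moved with the same arrays. For replicate 1 of 7 d and of 14 d the calgranulin S100a8 read 7.84 and 8.17, and it was at most 5.36 on the other 7 arrays. S100a9 read 7.96 and 8.10 there and at most 5.90 elsewhere. Neither was called (1.39, adjusted p = 0.25, and 1.52, adjusted p = 0.13). Of 15 tested markers 1, Lcn2, was called, which hepatocytes also make, and 7 (46.7%) lay above all 0 d arrays, among them the granule protease Elane by 0.18 and the ficolin Fcnb by 0.19 near the floor. Over all genes 0.132% were called higher and 2.9% lay above all 0 d arrays. The call of Lcn2 was lost in 7 of 9 fits without 1 array. The summed signal of these markers was 9.5 to 9.59 at 0 d, 10.08 to 12.66 at 7 d and 9.74 to 11.73 at 14 d, and it includes Lcn2. The part of these cells in the acute phase and Kupffer results was not tested.

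At 7 d alone, Wfdc17, a small secreted protein of activated macrophages, was called (1.61, adjusted p = 0.034). It read 8.44, 7.95 and 8.29 at 0 d, 10.61, 9.40 and 9.51 at 7 d, and 10, 9.07 and 8.25 at 14 d, and 14 d replicate 3 was inside the 0 d range. T and NK cell markers (13 tested, median 0.07) and B and plasma cell markers (11 tested, median 0.10) had 0 members called by limma, and 1 each at an unadjusted p under 0.05. Pooled differences were above 0 for 11 of 13 (84.6%) and 10 of 11 (90.9%), against 42.3% of all genes. The list medians were -0.01 and 0.07 at 7 d and 0.16 and 0.16 at 14 d. The chemokine Cxcl14 was above 0 d on all late arrays (3.73, 3.31 and 3.55, then 5.79, 4.63, 4.79, 5.68, 4.58 and 4.43) without a call (1.46, adjusted p = 0.085).

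The list of stellate cell and fibroblast markers held the called genes Col4a2 and Sparc. Col4a2, a chain of the type IV collagen of basement membranes, read 7.19, 7.56 and 7.47 at 0 d, 8.34, 8.32 and 8.05 at 7 d, and 8.05, 7.97 and 7.77 at 14 d. The late arrays were all above 0 d, and 7 d was above 14 d apart from a tie at 8.05. The difference was 0.67 ± 0.11 (adjusted p = 0.010), 0.83 at 7 d (adjusted p = 0.0063) and 0.52 at 14 d (adjusted p = 0.13). Without both arrays it was 0.67 with an adjusted p of 0.060, and the call was lost without 0 d replicate 1.

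Its partner Col4a1, whose gene lies next to Col4a2, read 7.14, 7.73 and 7.55 at 0 d, 8.58, 8.56 and 8.42 at 7 d, and 8.29, 7.46 and 7.62 at 14 d. At 7 d it rose by 1.05 (adjusted p = 0.038), whereas at 14 d a pair of livers were inside the 0 d range (0.32, adjusted p = 0.51). Sparc, a collagen-binding matrix protein, read 8.29, 8.56 and 8.96 at 0 d, 9.76, 9.72 and 9.68 at 7 d, and 9.19, 9.05 and 8.84 at 14 d. Its pooled difference was 0.77 ± 0.16 (adjusted p = 0.046), from 1.12 at 7 d (adjusted p = 0.012) and 0.42 at 14 d (adjusted p = 0.34), and 14 d replicate 3 was inside the 0 d range. Without both arrays it was 0.91 (adjusted p = 0.060).

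Of 34 stellate cell and fibroblast genes, 2 were called in the pooled comparison (Col4a2 and Sparc) and 3 at 7 d, beside 0.132% and 0.125% of all genes higher. The pooled count was 0 without 0 d replicate 1, and 1 without 0 d replicate 2, 7 d replicates 1 or 3, or 14 d replicates 1 or 2. The list median was 0.38 at 7 d and -0.01 at 14 d. The fibrillar collagen genes Col1a1, Col1a2 and Col3a1 had pooled differences of 0.27, 0.35 and 0.38 and were not called. Each was highest at 0 d on replicate 3, as Col3a1 at 8.65, 9.21 and 10.56. The summed signal of the list was 12.65 to 13.49 at 0 d, 13.23 to 13.49 at 7 d and 12.82 to 13.10 at 14 d, and its part in these results was not tested.

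The 16 lower genes were all outside the 51 lists, and those described here were chosen after their values were seen. With quantile normalization only Ift74 and Zfp667 of them stayed called. Xrn1, the main cytoplasmic exonuclease for decapped RNA, read 6.80, 6.86 and 6.71 at 0 d, 6.44, 6.38 and 6.46 at 7 d, and 6.40, 6.39 and 6.44 at 14 d. Every late array was below every 0 d array. The difference was -0.37 ± 0.06 (adjusted p = 0.010), and -0.41 (adjusted p = 0.048) without both arrays. It was lost without 0 d replicate 1 (adjusted p = 0.094) and with quantile normalization (adjusted p = 0.054). With probe sets averaged it was -0.21 (adjusted p = 0.11).

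Slc35a1, the Golgi transporter of CMP-sialic acid, read 8.48, 8.68 and 8.69 at 0 d, 8.32, 8.18 and 8.16 at 7 d, and 8.25, 8.25 and 8.21 at 14 d, without overlap. It fell by 0.39 (adjusted p = 0.014). The call was lost without 0 d replicate 3 (adjusted p = 0.064) and with quantile normalization (-0.31, adjusted p = 0.068). Its lowest mean was 7.76 at 0.25 d. Trap1, a mitochondrial chaperone of the Hsp90 family, read 10.03, 10 and 10.02 at 0 d and 9.65 to 9.81 later, a fall of 0.29 (adjusted p = 0.024). The Trap1 call was lost in 4 of 9 fits without 1 array. It was also lost with quantile normalization (adjusted p = 0.076) and with probe sets averaged (adjusted p = 0.060).

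Tns1, which links integrins to actin, fell by 0.55 (adjusted p = 0.024), from 8.5 to 8.78 at 0 d to at most 8.21. With probe sets averaged the Tns1 difference was -0.26 (adjusted p = 0.28). Nsfl1c, a cofactor of the p97 ATPase, fell by 0.37, Prkdc, the catalytic subunit of DNA-dependent protein kinase, by 0.41 and Ift74, a subunit of intraflagellar transport, by 0.55. None of these, apart from Xrn1, was called without both arrays. Among the higher genes outside the lists, Hif3a, a hypoxia-inducible factor subunit, rose by 0.47 (adjusted p = 0.014), with 6.64, 6.85 and 6.59 at 0 d and 7.07 to 7.29 later. It was 0.21 (adjusted p = 0.10) with probe sets averaged, and the call was lost without 0 d replicates 1 or 3. Tmem26, a membrane protein, rose by 0.75 (adjusted p = 0.049), with 5.2 to 5.29 at 0 d and 5.5 to 6.49 later, and replicate 1 highest at both late times. The kinase gene Mast1, the microtubule protein gene Map6 and the GTPase gene Rab3b rose by 0.46, 0.53 and 0.40 at signals near the floor. Mast1 was at 0.21 (adjusted p = 0.24) with probe sets averaged.

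Liver function genes had 0 calls by limma. The list medians of P450 and drug metabolism (-0.05), urea cycle and amino acid catabolism (-0.04), bile acid genes (-0.12), complement and coagulation (0.06), pericentral (0.03) and periportal genes (0.001) lay within 0.1 of the median of all genes. In all, 46 of the 51 lists had 0 members called, covering 1038 genes, of which 103 had an unadjusted p under 0.05. Of all 13642 genes tested, 34 (0.249%) were called and 2209 had an unadjusted p under 0.05. With so few calls, 0 in a list does not show its genes to be unchanged. The number of their members called became 6 without 0 d replicate 2, 3 without 14 d replicate 3, and 1 without 0 d replicate 1, without 7 d replicate 2 or with no filter.

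Cyp7a1, which catalyses the limiting step from cholesterol to bile acids, had a mean of 11.33 at 0 d, 4.88 at 0.25 d, 10.47 at 7 d and 10.94 at 14 d. Its pooled difference was -0.63, with a 95% interval of -1.74 to 0.48, which leaves room for a larger than 2-fold fall. Hsd3b5, a steroid enzyme of male liver, had means of 12.06, 4.67 at 0.25 d, 11.70 and 12.11, with a pooled difference of -0.16 (-1.26 to 0.94). The desaturase Scd1 had means of 14.06, 9.63 at 0.75 d, 14.02 and 13.77, and the lipogenic factor Srebf1 had 11.13, 7.40 at 0.25 d, 11.12 and 10.83.

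Intervals were narrower for these zonal and identity genes. Cyp2e1, a P450 of pericentral hepatocytes, differed by 0.03 (95% interval -0.08 to 0.15), the periportal Cyp2f2 by 0.03 (-0.26 to 0.32) and the urea cycle enzyme Cps1 by 0.00 (-0.18 to 0.18). The 0 d means of Cyp2e1, Cyp2f2 and Cps1 were 14.18, 13.64 and 13.92, where the highest signal on 0 d replicate 1 was 14.87. Cyp2e1 means stayed between 13.89 and 14.23 over the time course and Cps1 means between 13.68 and 14.03. Mean Cyp2f2 fell to 12.27 at 1 d. Whether signals this high are compressed, which would narrow the intervals of these genes, was not tested. The nuclear receptor Hnf4a differed by -0.08 (-0.23 to 0.06) and the growth hormone receptor Ghr by 0.02 (-0.29 to 0.34). Of 30 tested hepatocyte transcription factors, 3 had a pooled difference above 0 (10%, against 42.3% of all genes). Their median was -0.11, and 0 were called by limma or had an unadjusted p under 0.05. The lowest list medians were those of lipogenesis (-0.21, with 3 of 23 members above 0) and conjugation enzymes (-0.14). Of 33 respiratory chain subunits 5 lay below all 0 d arrays (15.2%, against 5.26% of all genes), at a list median of -0.09. The lipogenesis, conjugation and respiratory chain lists had 0 members called by limma. At an unadjusted p under 0.05 they had 1, 2 and 8, against 2209 of all 13642 genes tested.

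Cell cycle genes are given by their means. The proliferation marker Mki67 had a mean of 5.56 at 0 d, 9.6 at 3 d, 5.83 at 7 d and 5.29 at 14 d, and the mitotic kinase Cdk1 had 7.06, 10.03 at 3 d, 7.57 and 7.09. The helicase subunit Mcm5 had 5.89, 9.83 at 2 d, 6.06 and 5.84. These 3 were named after their values were seen. Of 43 mitosis and 39 DNA replication genes 0 were called by limma (1 and 2 at an unadjusted p under 0.05), with medians of 0.07 and -0.06. Pooled differences were above 0 for 33 (76.7%) and 13 (33.3%) of them, against 42.3% of all genes.

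Cyclin D1 (Ccnd1), which drives entry into the cycle, read 7.81, 8.25 and 8.02 at 0 d, 9.89, 9.63 and 8.66 at 7 d, and 9.01, 9.13 and 8.33 at 14 d. All late arrays were above all 0 d arrays, yet the difference of 1.08 (95% interval 0.30 to 1.86) did not pass the adjusted test (adjusted p = 0.16). The inhibitor Cdkn2c was likewise above 0 d on all late arrays (0.64, adjusted p = 0.16). Lipoprotein lipase (Lpl) read 8.61, 9.62 and 9.39 at 0 d, 9.89, 10.47 and 11.26 at 7 d, and 10.70, 9.95 and 9.98 at 14 d, a difference of 1.17 (0.59 to 1.76, adjusted p = 0.074). Its highest 7 d value was on replicate 3, the array high in adipocyte genes.

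Between 14 d and 7 d themselves, without use of the 0 d arrays, limma called 0 genes (0%). At an unadjusted p under 0.05 there were 572, and the smallest adjusted p was 0.94. The median absolute difference was 0.08. The difference of 14 d minus 7 d was -2.46 for Lcn2, -1.04 for Saa1 and -0.69 for Sparc, without a call.

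**Figure D5:**
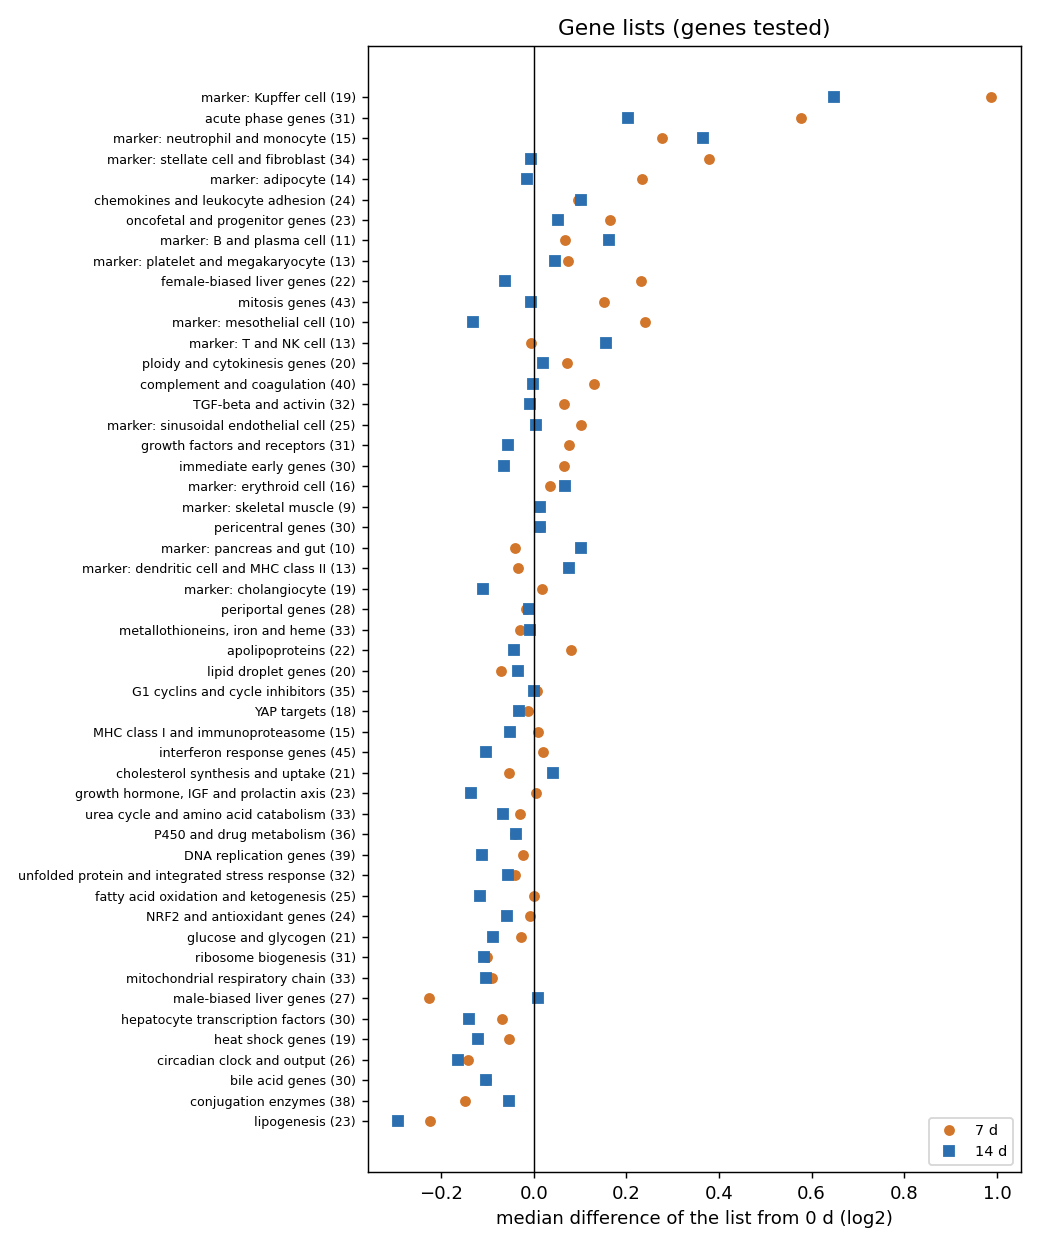
Median difference from 0 d (log2) of the tested genes of 51 lists at 7 d (circles) and 14 d (squares), with the number of genes tested in brackets. Kupffer markers and acute phase genes lie farthest above 0 at 7 d, and lipogenesis farthest below at 14 d.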

How the data were processed

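Gene expression was measured in mouse liver with Affymetrix arrays, 3 per time at 11 times. Per the labels' protocols, Trizol was used to extract RNA, and 5 µg of it went into a 3' labelling kit. The deposited log2 values were made by the authors with RMA, per the submitters' processing notes; its version is not given in the sources used here. RMA equalizes arrays, which hides any shift of the whole transcriptome. One description field mentions cells from fat, but the tissue and source labels name liver, which was taken as the tissue.

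The table held 45101 probe sets, of which 34945 had a single gene symbol in the platform annotation, 932 several and 9160 none, beside 64 controls. Of the single-symbol probe sets 34741 matched the reference gene table by Entrez number. The probe set with the highest mean stood for each of 18193 genes, and 13642 with a log2 value of at least 5 on at least 3 arrays were tested. With limma 3.58.1 (R 4.3.3) each of the 11 times got its own mean over the 33 arrays (22 residual and 3.69 prior degrees of freedom), and contrasts were adjusted by Benjamini-Hochberg, two-sided, at 0.05. The pooled contrast is the mean of 7 d and 14 d minus 0 d. P-values measure the spread between livers, and 3 arrays a time limit the precision. No pair of arrays held identical values (0 pairs).

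The groups, gene lists and tests were chosen with earlier results of these data known. Named genes were those passing all conditions without overlap (12 highest and 12 lowest pooled differences), up to 4 called members per list, any member of a list of 40 or fewer genes, up to 5 genes each way for 14 d against 7 d, and genes that check the labels. Others are said to have been named after their values were seen, or are among the 34 called genes or the 25 called at 7 d. The steps were tested on simulated data. Alternatives tried were quantile normalization, one median for all arrays, no filter or one at 7, averaging the probe sets of each gene, array weights, a robust prior with an intensity trend, only the 9 arrays, the replicate number as a block, and arrays left out. Plots used matplotlib 3.10.9 in Python 3.11.15.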

Additional observations from a re-analysis of the deposited data

Results flagged for a closer look

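Probe sets without a single gene symbol were tested apart by the same fit, and they belong to no comparison of the report. Of 4290 such probe sets, 14 were called with limma in the pooled comparison, 13 higher and 1 lower, and 559 had an unadjusted p under 0.05. They are unnamed here, and no gene was assigned to them.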

How the results depend on the processing

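None of the 34 called genes changed sign under any alternative run. The pooled count of 34 became 15 (9 higher and 6 lower) with probe sets averaged per gene, 11 (9 and 2) with quantile normalization, 22 (9 and 13) with array weights, 0 with only the 9 arrays, with times apart or as 1 group (limma, 2068 and 2162 at an unadjusted p under 0.05), and 6 without 14 d replicate 1 and 0 d replicate 3. The 7 d count of 25 became 15 with quantile normalization, 12 with array weights, 3 with only the 9 arrays and 48 without those arrays. The 14 d count of 2 became 0 with no filter, a filter at 7, only the 9 arrays or without those arrays, 1 with a common median, 4 with quantile normalization and 12 with array weights. The 2 genes that met every condition became 1 with a common median and 0 with no filter, a filter at 7, array weights or only the 9 arrays. They became 3, all higher, with quantile normalization. With probe sets averaged the count stayed 2, but as 1 higher and 1 lower gene, so not the same pair. The causes were not tested. Leaving out single arrays gave 5 to 66 pooled calls, 0 to 48 at 7 d, 0 to 23 at 14 d, 0 to 1 for 14 d against 7 d, and 0 to 2 genes meeting every condition. The lowest pooled count was without 0 d replicate 1 and the highest without 0 d replicate 2, and 7 d gave 0 without 0 d replicate 1 or 7 d replicate 1. Same-numbered arrays deviated together with correlations of -0.353 to 0.276. Differently numbered arrays were not compared, so these values do not decide whether the numbers pair the livers. With the replicate number as a block 45 genes were called (27 higher and 18 lower), 32 of them among the 34, and 25 at 7 d, 2 at 14 d and 0 for 14 d against 7 d. Only Sod3 and Pik3cd kept the pooled call without each single array. List medians of acute phase genes and Kupffer markers stayed at 0.47 to 0.48 and 0.83 to 0.90 over the scalings tried. Signals near a log2 value of 5, as of Ackr1 and of Lcn2 and Marco at 0 d, lie close to the floor, where differences are compressed.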

Other observations

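Genes known to be higher in female liver held 4 of 22 tested members (18.2%, against 2.9% of all genes) above 0 d on all late arrays, though 0 were called by limma and 4 had an unadjusted p under 0.05. The list as a whole had 12 of 22 members above 0, with medians of 0.08 pooled, 0.23 at 7 d and -0.06 at 14 d. The 4 members were the organic anion transporter genes Slc22a26, Slc22a27 and Slc22a29, with pooled differences of 0.65, 0.64 and 0.73, and the retinol dehydrogenase Rdh9, with 0.72 (adjusted p = 0.12, 0.13, 0.097 and 0.077). Rdh9 read 9.81, 9.71 and 9.87 at 0 d, 10.92, 10.77 and 10.19 at 7 d, and 9.98, 10.71 and 10.49 at 14 d. The 3 transporter genes were near the floor of the arrays. Genes higher in male liver had a median of -0.23 at 7 d and 0.01 at 14 d, with -0.45 on 7 d replicate 1. The binding protein Igfbp1 was 1.25 lower than at 0 d (95% interval -2.48 to -0.02, adjusted p = 0.30), and the epidermal growth factor receptor Egfr 0.72 higher (0.28 to 1.16, adjusted p = 0.12) with 0 d values of 12.28, 11.23 and 11.08, so replicate 1 of 0 d was inside the late range.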
